A study of Mus musculus with 6 samples.

Results

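The alpha chain V genes described here were those left over once the larger families of P2+CD4+ T cells were set aside. They were the productive TRA contigs whose V gene name held no -DV and was not of family TRAV6, TRAV7, TRAV9, TRAV12 or TRAV14, with a D or N after the family number ignored. The rule used names only and no measured value, but it was chosen with earlier results of these data known. It took 296 of the 1123 productive TRA contigs in the 3 TCR libraries, from 285 of 999 cells with a TRA, and they carried 35 of the 85 TRAV names found. These chains are called the remaining TRAV chains below. Each was placed in 1 of 3 copies by its name: D-named (TRAV3D-3), N-named (TRAV10N) or unmarked (TRAV5-4).

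All libraries came from cervical, submandibular and axillary lymph nodes, pooled, of AireGW/+ Lyn-/- mice, which carry a dominant mutant allele of Aire and lack the kinase Lyn, so the mice without disease had the same genotype as those with it. CD4 single positive T cells that bound an I-Ab tetramer with the P2 peptide of interphotoreceptor retinoid-binding protein (IRBP), an antigen of the retina, were sorted from mice of 9 wk and sequenced in droplets. Uveitis dataset 1 and uveitis dataset 2 came from pools of 7 and 8 mice with uveitis (which pool was which dataset is not given in the sources used here), and the no uveitis dataset from 1 pool of 16 mice. A pool is 1 sample and the mouse of origin of a cell is unknown, so no test between conditions was made. Shares are given with exact Clopper-Pearson 95% intervals, which cover counting error only, and cells of a clone are not independent draws.

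The Tcra locus holds a long array of V genes, a run of J genes and 1 constant gene, and a TRA chain is made when a V gene is joined to a J gene with trimming and addition of bases at the joint. A stretch of the V array was duplicated in the mouse, and the letters D and N mark the genes of the added copies, so that a gene such as TRAV3-3 has close relatives named TRAV3D-3 and TRAV3N-3. Joining starts with V and J genes that lie near each other and can be followed by further joining of V genes and J genes farther out. Both Tcra alleles can be rearranged, so a T cell can carry more than 1 productive TRA. TRAV11 joined to TRAJ18 makes the invariant chain of natural killer T (NKT) cells, and TRAV1 joined to TRAJ33 that of mucosal-associated invariant T (MAIT) cells.

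The libraries held 186, 330 and 483 cells with a productive TRA (uveitis dataset 1, uveitis dataset 2 and no uveitis, the order used throughout), of which 176, 324 and 470 also had a productive TRB. Remaining TRAV contigs had a median of 4, 6 and 7 UMIs, against 5, 4 and 7 for the other TRA contigs, and ranged from 1 to 52 UMIs. Cells of 1 library formed a clonotype if both their top chains, the TRA and the TRB with the most UMIs, had equal V and J genes and equal CDR3 bases, and a cell was called expanded if its clonotype held at least 2 cells. Droplets with more than 1 cell were not removed. Uveitis dataset 2 and the no uveitis dataset shared 1 barcode, which did not carry a remaining TRAV chain in both, and the other pairs of libraries shared 0.

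The 3 copies of these genes differ by few bases, which limits what a name can say. The rule fits 44 V genes and 18 pseudogenes of the GENCODE M21 annotation (GRCm38), all on the plus strand of chromosome 14. All 35 names found were V genes and none was a pseudogene, but the rule took productive contigs only, which leaves pseudogenes little room to appear. The D-named genes span chr14:52710913-53082520 and include 12 V genes, and the N-named genes span chr14:53122114-53375279 with 13. Of the 19 unmarked V genes, 15 lie after the N-named genes, at chr14:53418349-53977678, and the others lie before the D-named genes. The last 60 bases of the annotated transcripts of 3 sets show how alike the copies are, with the positions at which a set differs in capitals.
TRAV3D-3: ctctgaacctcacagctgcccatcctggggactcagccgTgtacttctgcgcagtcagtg
TRAV3N-3: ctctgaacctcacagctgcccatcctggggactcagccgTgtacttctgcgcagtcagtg
TRAV3-3: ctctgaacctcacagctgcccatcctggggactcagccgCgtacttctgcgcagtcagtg
TRAV13D-1: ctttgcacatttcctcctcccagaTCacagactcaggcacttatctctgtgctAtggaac
TRAV13N-1: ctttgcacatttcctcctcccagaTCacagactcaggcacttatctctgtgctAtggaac
TRAV13-1: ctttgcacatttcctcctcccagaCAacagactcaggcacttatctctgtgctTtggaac
TRAV8D-2: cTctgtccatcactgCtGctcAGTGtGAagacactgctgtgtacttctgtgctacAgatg
TRAV8N-2: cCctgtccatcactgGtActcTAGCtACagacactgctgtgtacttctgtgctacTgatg
TRAV3D-3 (chr14:52972448-52973038) and TRAV3N-3 (chr14:53283585-53284175) were alike at every position of this window and TRAV3-3 (chr14:53665929-53666506) differed from them at 1. The TRAV13-1 set differed at 3 positions and the TRAV8-2 set at 10.

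Over the last 260 bases of the transcripts, 6 of 25 pairs of remaining TRAV copies were identical, and 5 of these 6 paired a D-named with an N-named gene. The contigs of an identical pair nearly all stood under 1 of its names. TRAV3D-3 had 30 contigs and TRAV3N-3 had 3, TRAV4N-4 had 24 and TRAV4D-4 had 0, TRAV13D-2 had 12 and TRAV13N-2 had 0, TRAV5N-4 had 12 and TRAV5D-4 had 0, and TRAV4D-3 had 7 and TRAV4N-3 had 0. TRAV11 had 2 and TRAV11D had 0. Thus 90 of the 296 contigs, or 30.4%, had a name with an identical copy, and for 88 of the 169 D- or N-named contigs the letters D and N could not be told apart over these bases. The other pairs differed at 1 to 24 bases: TRAV13D-1 and TRAV13N-1 at 1, TRAV10N and TRAV10 at 4, TRAV16N and TRAV16 at 4, TRAV3D-3 and TRAV3-3 at 4, TRAV13D-1 and TRAV13-1 at 11, and TRAV8D-2 and TRAV8N-2 at 24. An unmarked gene was separated from its relatives by at least 2 bases in every pair except TRAV11 and TRAV11D.

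**Figure D1:**
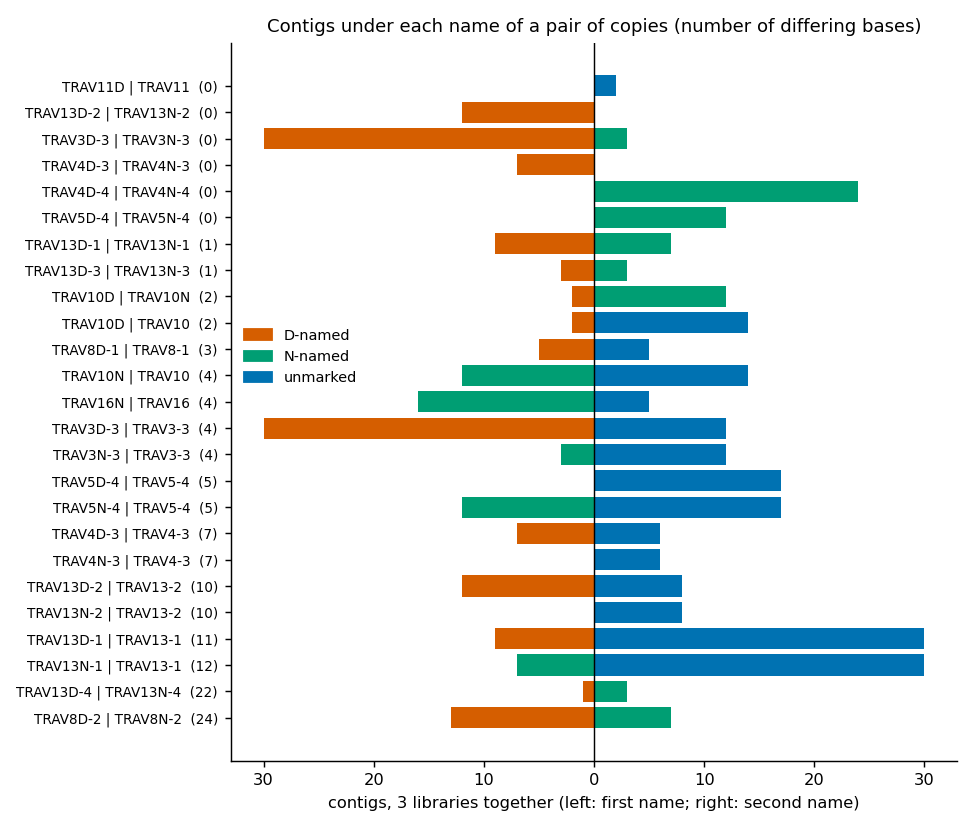
Each row is a pair of copies of 1 gene, with the number of bases at which the last 260 bases of their transcripts differ in brackets; bars give the contigs of the 3 libraries together under the first name (left) and the second name (right), coloured by copy. Of the 6 pairs with no difference, 5 have all their contigs under 1 name, and TRAV3D-3 and TRAV3N-3 have 30 and 3.

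Of the 44 V genes, 9 were found in no library, and 0 of 296 contigs allows a share of up to 1.01%. The last 260 bases of TRAV11D, TRAV4D-4, TRAV5D-4, TRAV4N-3 and TRAV13N-2 were identical to those of a gene that was found, so 5 of these absences cannot be told from a choice of name. TRAV15N-1 and TRAV15N-2 were identical to genes shared by the alpha and delta loci, which the rule leaves out, and the other two, TRAV18 and TRAV23, had no relative to compare. The rule also leaves out relatives that were used: TRAV4-4-DV10, the unmarked counterpart of TRAV4N-4, had 41 contigs and differs from it at 8 bases.

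The remaining TRAV chains made up between 25.4% and 32.4% of clonotypes in the libraries. They were 44 of 138 clonotypes in uveitis dataset 1, or 31.9% (24.2 to 40.4%), 36 of 142 in uveitis dataset 2, or 25.4% (18.4 to 33.3%), and 133 of 411 in the no uveitis dataset, or 32.4% (27.9 to 37.1%). The 3 intervals overlap, and the uveitis mean was 28.6% ± 4.62 (SD, n = 2 pools). By cells the libraries were farther apart. A remaining TRAV chain was present in 58 of 186 cells, or 31.2% (24.6 to 38.4%), in 61 of 330, or 18.5% (14.4 to 23.1%), and in 166 of 483, or 34.4% (30.1 to 38.8%). Uveitis dataset 2 was the low library here, with an interval below those of both others, so the 2 uveitis pools differed from each other and their mean was 24.8% ± 8.98 (SD, n = 2).

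By copy, unmarked genes had the most clonotypes in uveitis dataset 1 and without uveitis, and the copies were nearly even in uveitis dataset 2. Unmarked genes are also the most numerous, with 19 V genes that fit the rule against 12 D-named and 13 N-named. The shares are not per gene, so they do not show that a copy was preferred. D-named genes had 8 of 44, 11 of 36 and 38 of 133 clonotypes, or 18.2% (8.19 to 32.7%), 30.6% (16.3 to 48.1%) and 28.6% (21.1 to 37%). N-named genes had 15, 12 and 36, or 34.1% (20.5 to 49.9%), 33.3% (18.6 to 51%) and 27.1% (19.7 to 35.5%). Unmarked genes had 21, 13 and 59, or 47.7% (32.5 to 63.3%), 36.1% (20.8 to 53.8%) and 44.4% (35.8 to 53.2%). The intervals of the 3 libraries overlap for each copy. The order in uveitis dataset 2 rests on 13 against 12 clonotypes and was not stable: by cells D-named genes led there with 38.5% against 36.5% for unmarked genes, and with Cell Ranger's clonotypes N-named genes led with 35.3% against 32.4%. The D-named and N-named copies, pooled because many have identical sequences, had 52.3% (36.7 to 67.5%), 63.9% (46.2 to 79.2%) and 55.6% (46.8 to 64.2%) of clonotypes.

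**Figure D2:**
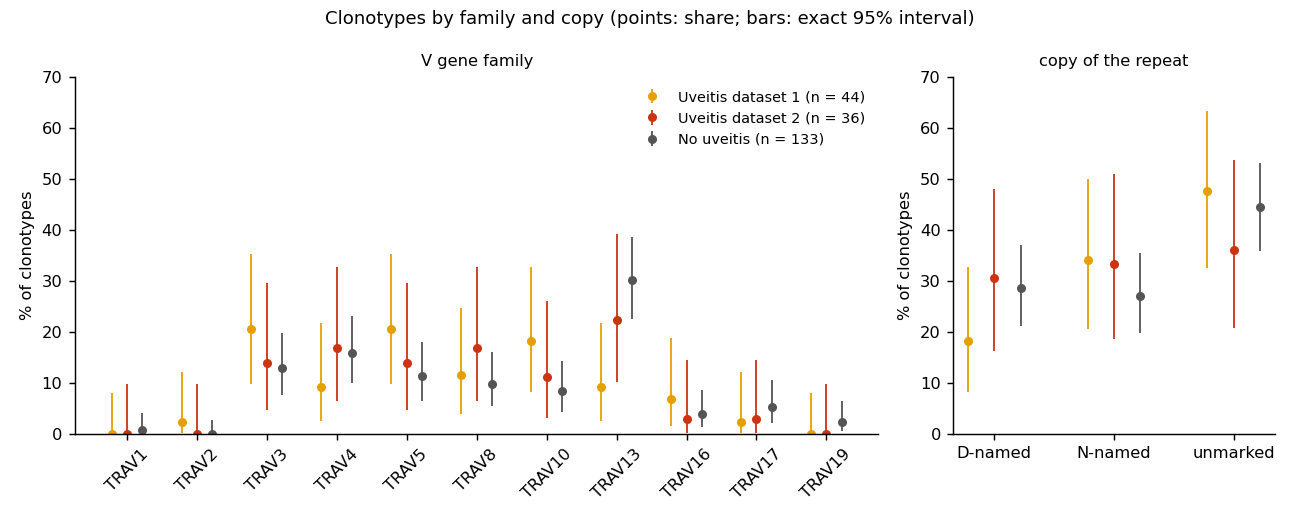
Share of the clonotypes of remaining TRAV chains in each V gene family (left) and each copy (right), in percent, with points for the share in a library and bars for the exact 95% interval. The intervals of uveitis dataset 1, uveitis dataset 2 and the no uveitis dataset overlap for the copies, and TRAV13 ranges from 9.09% in uveitis dataset 1 to 30.1% in the no uveitis dataset.

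By family, TRAV3, TRAV4, TRAV5, TRAV8, TRAV10 and TRAV13 held most clonotypes in each library. TRAV13 had the widest range of shares. It had 4 of 44 clonotypes in uveitis dataset 1, or 9.09% (2.53 to 21.7%), 8 of 36 in uveitis dataset 2, or 22.2% (10.1 to 39.2%), and 40 of 133 in the no uveitis dataset, or 30.1% (22.4 to 38.6%). The intervals of uveitis dataset 1 and the no uveitis dataset do not overlap, while that of uveitis dataset 2 overlaps both (uveitis mean 15.7% ± 9.29, SD, n = 2). As a share of all clonotypes TRAV13 had 2.9% (0.795 to 7.26%), 5.63% (2.46 to 10.8%) and 9.73% (7.04 to 13%), and these intervals overlap. Within the paired cells of remaining TRAV chains the order changed, with 7.84% (2.18 to 18.9%), 36.5% (23.6 to 51%) and 29.1% (21.7 to 37.3%). Uveitis dataset 2 was then the highest. TRAV3 and TRAV5 ran the other way, with 20.5% each in uveitis dataset 1, 13.9% each in uveitis dataset 2, and 12.8% and 11.3% in the no uveitis dataset, and all of their intervals overlap. TRAV10 had 18.2%, 11.1% and 8.27%, and TRAV8 had 11.4%, 16.7% and 9.77%. TRAV4 had 9.09%, 16.7% and 15.8%. The families with no copies were rare: TRAV17 had 1, 1 and 7 clonotypes, TRAV19 had 3 and TRAV1 had 1, all 4 in the no uveitis dataset, and TRAV2 had 1, in uveitis dataset 1.

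Within a family the clonotypes were spread unevenly over the names of the copies. For TRAV3D-3, TRAV4N-4, TRAV5N-4 and TRAV13D-2 the name does not settle the copy, since each has a relative with identical last 260 bases. Of 31 TRAV3 clonotypes 21 were named TRAV3D-3, the V gene name with the most clonotypes, with 6, 3 and 12. Its share of all clonotypes was 4.35% (1.61 to 9.22%), 2.11% (0.438 to 6.05%) and 2.92% (1.52 to 5.04%), and these intervals overlap. TRAV3N-3 had 1 clonotype, TRAV3-3 had 6, TRAV3-4 had 2 and TRAV3-1 had 1. TRAV13-1 (chr14:53545014-53545525) followed with 3, 2 and 15 clonotypes, and TRAV4N-4 (chr14:53302036-53302559) with 3, 6 and 9. Some of these clonotypes share a CDR3α. Among those of TRAV3D-3, 3 shared a chain with TRAJ21, 3 a chain with TRAJ5 and 2 a chain with TRAJ12. Among those of TRAV13-1, 3 shared a chain with TRAJ15. With each shared chain counted once, TRAV3D-3 no longer led these genes, so its lead holds by clonotypes only. TRAV5-4 (chr14:53704007-53704514) had 4, 3 and 9, whereas TRAV5N-4 had 3, 2 and 4. TRAV10 and TRAV10N were nearly even at 10 and 11 clonotypes in all, and TRAV10D had 2, both without uveitis. TRAV13D-2 had 1, 1 and 9 clonotypes, TRAV13N-1 had 0, 0 and 6, and TRAV8D-2 had 0, 4 and 5. For TRAV13N-1, 0 of 138 and 0 of 142 clonotypes allow shares of up to 2.17% and 2.11%, above the 1.46% of the no uveitis dataset, so its absence with uveitis was not detectable as a difference at this depth. Of the 35 genes, 13 were found in all 3 libraries, and of the 9 found without uveitis alone none had more than 7 contigs. The no uveitis dataset also had the most remaining TRAV contigs, 173 against 59 and 64. The sharing of other TRAV names was not counted.

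**Figure D3:**
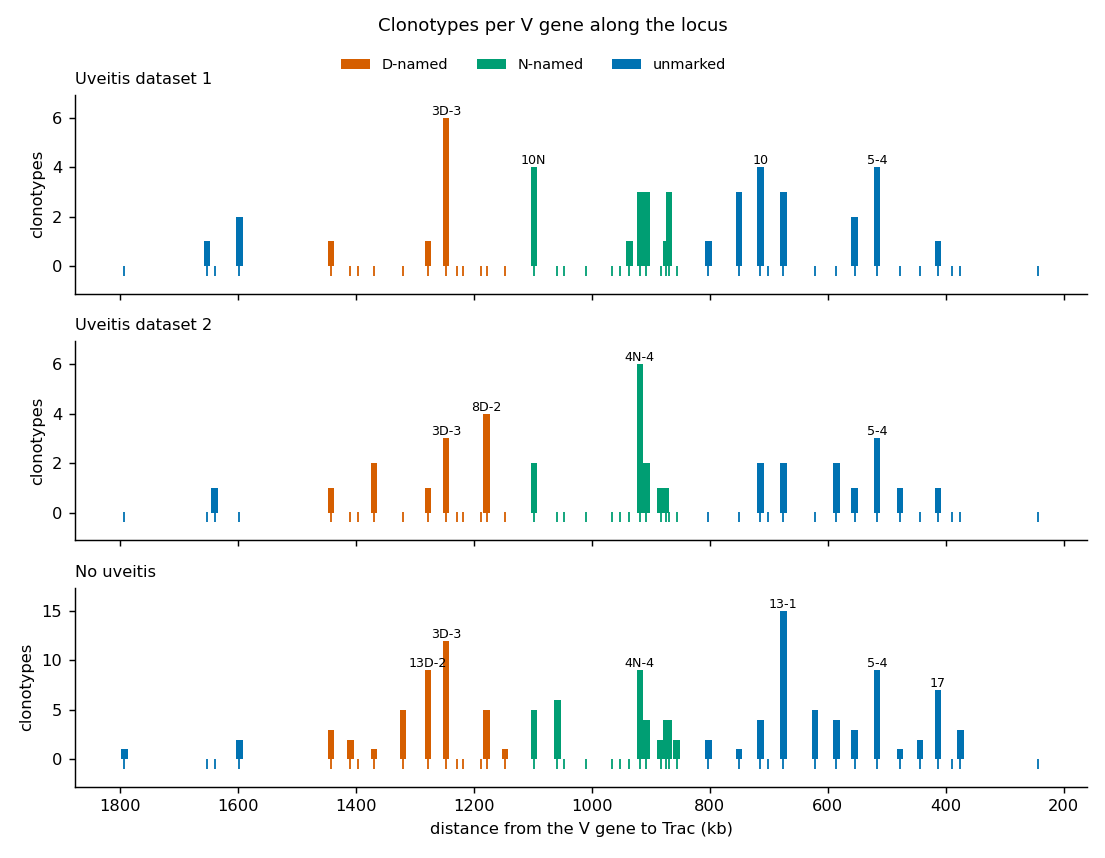
Clonotypes per V gene (vertical axis) against the distance of the gene from the constant gene Trac in kb (horizontal axis, larger values farther upstream), 1 panel per library with its own scale, coloured by copy; ticks under the axis mark every annotated V gene fitting the rule, used or not. TRAV3D-3 stands highest among D-named genes in uveitis dataset 1 and without uveitis, and TRAV4N-4 is the highest N-named gene in uveitis dataset 2 and without uveitis.

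The J gene joined to a remaining TRAV gene moved with the V gene's place in the locus, in the same direction in each library. The TRAJ genes were scored by their distance from the first of them, TRAJ61, which lies nearest the V genes, and the cluster runs 63.8 kb to TRAJ1. Over the 3 libraries together, the few unmarked genes that lie before the D-named block (TRAV1, TRAV2, TRAV3-1 and TRAV5-1) joined TRAJ genes at a median of 49.4 kb (7 clonotypes). D-named genes did so at 41.1 kb (57), N-named genes at 42.2 kb (63) and all unmarked genes at 26.5 kb (93). TRAV17 and TRAV19, which are among the nearest to the TRAJ genes, were joined at 12 kb (12 clonotypes). Within the libraries the medians of D-named, N-named and unmarked genes were 51.5, 49.4 and 34.9 kb in uveitis dataset 1, 48.1, 45.8 and 18.7 kb in uveitis dataset 2, and 39.5, 41.7 and 26.5 kb without uveitis. Unmarked genes had the lowest median in each of the 3. Spearman's rho between V distance and TRAJ distance was 0.51 over 44 clonotypes, 0.41 over 36 and 0.39 over 133. These are given as descriptions, since clonotypes of a library share mice and some share a TRA.

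Single genes followed this order only in part. TRAV5-1, about 1597 kb before Trac, joined TRAJ genes from 42.2 to 56.5 kb in its 4 clonotypes, TRAV3D-3 at a median of 43.8 kb, TRAV10N at 49.4 kb, TRAV13-1 at 33.9 kb, TRAV5-4 at 20.3 kb, TRAV17 at 14.8 kb and TRAV19 at 2.27 kb. Of 11 pairs of a D- or N-named gene and its unmarked counterpart with clonotypes of both, the D- or N-named gene had the larger median in 8 and the smaller in 3. Among the 8 were TRAV10N at 49.4 kb and TRAV10 at 34.9 kb, TRAV5N-4 at 43.8 kb and TRAV5-4 at 20.3 kb, TRAV3D-3 at 43.8 kb and TRAV3-3 at 19.7 kb, and TRAV16N at 49.4 kb and TRAV16 at 19.2 kb. The 3 that went against the order were TRAV13D-1 at 12.6 kb and TRAV13-1 at 33.9 kb, TRAV8D-1 at 25.6 kb and TRAV8-1 at 31 kb, and TRAV10D at 29.3 kb and TRAV10 at 34.9 kb. These 3 D-named genes lie 1369, 1442 and 1409 kb before Trac, farther than TRAV10N at 1098 kb and TRAV16N at 869 kb. The N-named genes had the larger median in each of their pairs, the D-named genes in only some of theirs. The pairs are not independent, because TRAV3-3, TRAV10 and TRAV13-1 each stand in more than 1. TRAV3D-3 and TRAV3N-3, identical over their last 260 bases, both count among the 8. The medians of single genes rest on 1 to 21 clonotypes a gene. Over the 3 libraries together, the V-near part of the TRAJ cluster, its first 31.9 kb, took 36.8% (24.4 to 50.7%) of D-named, 25.4% (15.3 to 37.9%) of N-named and 59.1% (48.5 to 69.2%) of unmarked clonotypes. The pooled interval of unmarked genes lies above that of N-named genes and overlaps that of D-named genes. Within libraries the unmarked share was 42.9% (21.8 to 66%), 76.9% (46.2 to 95%) and 61% (47.4 to 73.5%) and the N-named share 20% (4.33 to 48.1%), 33.3% (9.92 to 65.1%) and 25% (12.1 to 42.2%). These intervals overlap in both uveitis datasets and are apart without uveitis. For 88 contigs the D and N names cannot be separated by sequence, so these shares are best read for both names at once.

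**Figure D4:**
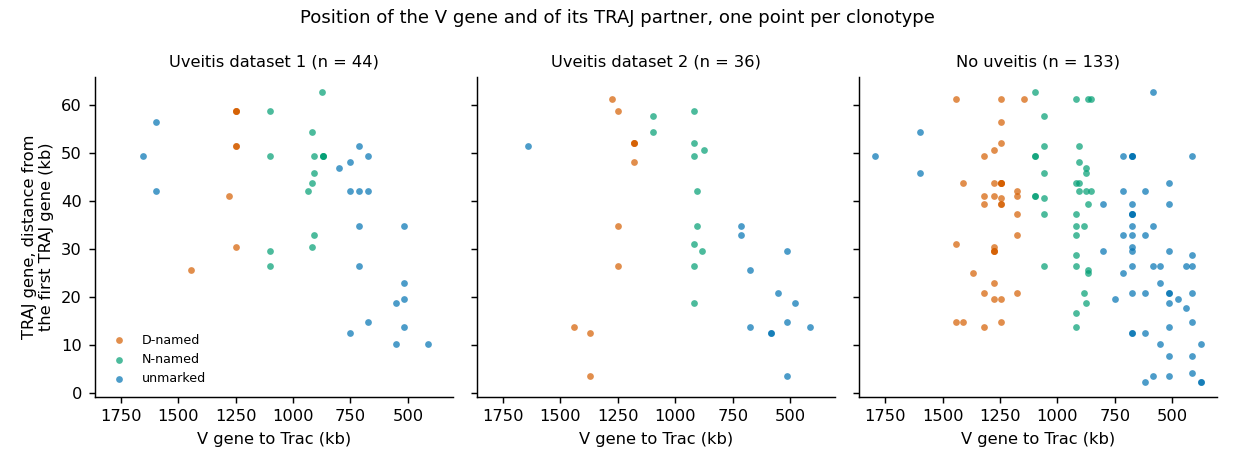
One point per clonotype of a remaining TRAV chain: distance of its V gene from Trac in kb (horizontal axis) against distance of its TRAJ gene from the first TRAJ gene in kb (vertical axis), coloured by copy. In each library the unmarked genes nearest Trac are joined mainly to TRAJ genes low on the axis, and the D- and N-named genes are spread higher, with medians of 41.1, 42.2 and 26.5 kb for D-named, N-named and unmarked genes over the 3 libraries.

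The TRAJ genes most often joined differed between libraries. In uveitis dataset 1 TRAJ15 led with 7 of 44 clonotypes, or 15.9% (6.64 to 30.1%), against 0 of 94 clonotypes of other TRAV genes, which allows up to 3.19%. TRAJ22 followed with 5, and TRAJ5 with 4 against 0 of 94. In uveitis dataset 2 TRAJ11 had 4 of 36, and TRAJ30, TRAJ49 and TRAJ50 had 3 each. Without uveitis TRAJ15 and TRAJ21 had 9 of 133 each and TRAJ42 had 8, against 11, 6 and 11 of 278 for other TRAV genes, so that their intervals overlap. TRAJ15 thus led, or led jointly, in 2 libraries, while it had 1 of 36 in uveitis dataset 2. Part of these counts is 1 TRA seen with several TRBs. In uveitis dataset 1, 3 of the 7 TRAJ15 clonotypes shared a single CDR3α, as did 3 of the 4 TRAJ5 clonotypes. Without uveitis, 3 of the 9 TRAJ15 clonotypes shared a TRAV13-1 chain and 3 of the 9 TRAJ21 clonotypes a TRAV3D-3 chain.

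The leading TRB partners were genes that other TRAV chains used as well. TRBV13-2 had 7 of 44, 4 of 36 and 17 of 133 clonotypes, or 15.9%, 11.1% and 12.8%, against 17%, 12.3% and 11.5% with other TRAV genes. TRBV20 was with 6, 4 and 9, TRBV3 with 4, 6 and 10, and TRBV19, with 4 and 12, was among the first 3 in uveitis dataset 2 and without uveitis. TRBV15 had 4 in uveitis dataset 1, and TRBV13-3 had 10 without uveitis, as many as TRBV2. The intervals of these shares overlap those for other TRAV genes in the same library. Pairs of a V gene and a TRBV were nearly all different in uveitis dataset 2, with 35 pairs among 36 clonotypes. There were more repeats in uveitis dataset 1, with 38 among 44, and without uveitis, with 108 among 133. Within a library a single pair held at most 4, 2 and 5 clonotypes. The pair with the most clonotypes was TRAV3D-3 with TRBV13-2, at 6, of which 3 shared 1 CDR3α with TRAJ21 without uveitis. TRAV10N with TRBV31 had 4 and was the only pair among those with at least 3 clonotypes to occur in all 3 libraries.

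The expanded share of cells was lower with remaining TRAV chains than with other TRAV chains in each library. The families set aside were chosen with earlier results of these data known, so part of this contrast may be built into the choice. In uveitis dataset 1, 9 of 51 cells were expanded, or 17.6% (8.4 to 30.9%), against 42 of 125, or 33.6% (25.4 to 42.6%). In uveitis dataset 2, 22 of 52 were, or 42.3% (28.7 to 56.8%), against 196 of 272, or 72.1% (66.3 to 77.3%). Without uveitis, 13 of 141 were, or 9.22% (5 to 15.3%), against 67 of 329, or 20.4% (16.1 to 25.1%). The intervals overlap in uveitis dataset 1 and do not in the other 2. With Cell Ranger's clonotypes the shares with remaining TRAV chains were 11.8%, 48.1% and 10.6%. They were 17.6%, 53.8% and 10.6% when cells that share a TRB and any TRA were joined, an alternative chosen after seeing the data. The shares with other TRAV chains were not recomputed in these ways, so the contrast was tried with 1 definition of a clonotype only. By clonotypes the shares were 4.55% against 11.7%, 16.7% against 28.3%, and 3.76% against 5.76%, with overlapping intervals in all 3. The largest clonotype of a remaining TRAV chain held 7, 7 and 4 cells, against 12, 37 and 18 for other TRAV chains. The uveitis mean of the expanded share was 30% ± 17.4 (SD, n = 2), so the uveitis pools were far from each other.

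Different copies held the expanded cells in different libraries. In uveitis dataset 1 they were 7 of 21 N-named, 2 of 22 unmarked and 0 of 8 D-named cells. In uveitis dataset 2 they were 11 of 20 D-named, 9 of 19 unmarked and 2 of 13 N-named cells. Without uveitis they were 11 of 45 D-named, 2 of 37 N-named and 0 of 59 unmarked cells, and the last allows up to 5.08%. Of these 11 D-named cells, 6 were TRAV3D-3 and 3 were TRAV4D-3, whose last 260 bases are identical to those of TRAV3N-3 and TRAV4N-3, so D and N cannot be told apart for them. In all, 13 clonotypes had at least 2 cells (2, 6 and 5), so each of these counts above 0 rests on 1 to 4 clonotypes.

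**Figure D5:**
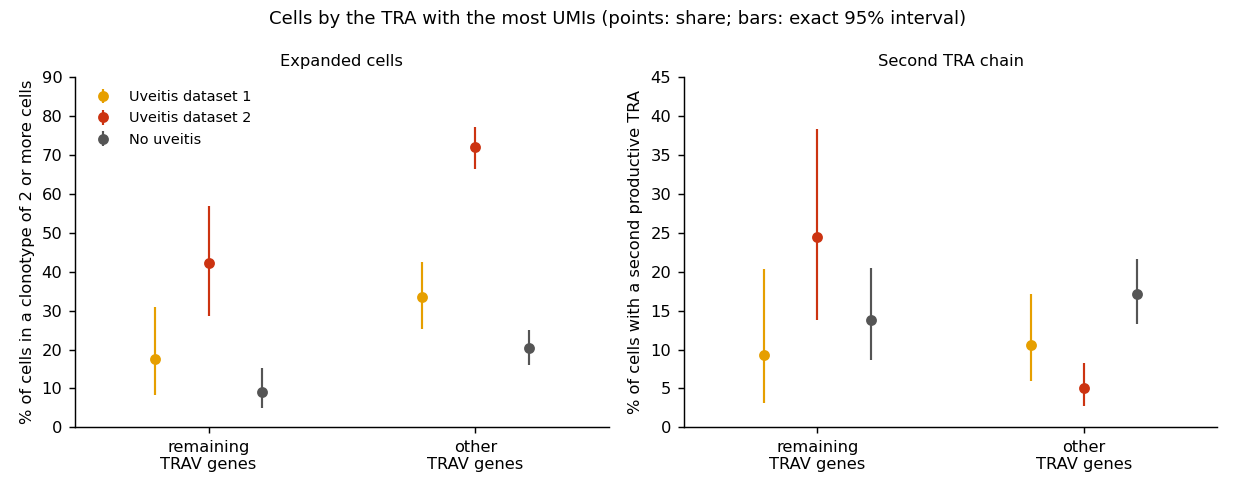
Left, percent of paired cells in a clonotype of 2 or more cells; right, percent of cells with a second productive TRA, for cells whose TRA with the most UMIs is a remaining TRAV chain or another TRAV chain; points give the share in a library and bars the exact 95% interval. The expanded share of remaining TRAV chains is 17.6%, 42.3% and 9.22%, below that of other TRAV chains in each library.

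The clonotypes with at least 3 cells are shown by their CDR3α, in which capitals mark bases that match neither the annotated V gene nor the annotated J gene.
Uveitis dataset 1, TRAV16N and TRAJ15: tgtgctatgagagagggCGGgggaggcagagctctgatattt
Uveitis dataset 2, TRAV13D-1 and TRAJ50: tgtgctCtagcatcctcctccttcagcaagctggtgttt
Uveitis dataset 2, TRAV13-1 and TRAJ38: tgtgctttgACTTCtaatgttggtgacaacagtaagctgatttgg
Uveitis dataset 2, TRAV8D-2 and TRAJ11: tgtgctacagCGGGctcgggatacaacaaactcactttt
No uveitis, TRAV3D-3 and TRAJ21: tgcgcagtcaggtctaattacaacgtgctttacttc
No uveitis, TRAV4D-3 and TRAJ42: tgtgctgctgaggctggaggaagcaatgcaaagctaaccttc
The 4 chains from mice with uveitis had 1 to 5 unmatched bases and both chains from mice without uveitis had 0. This contrast depends on the cut at 3 cells. Among clonotypes of 2 cells without uveitis, a TRAV13N-4 and TRAJ22 chain had 4 unmatched bases and a TRAV8D-2 and TRAJ27 chain had 3. Another such clonotype had the same TRAV3D-3 and TRAJ21 chain with 0. The TRAV16N clonotype, with TRBV15 and TRBJ2-3, had 7 cells, and its TRA had 2 to 9 UMIs in them (median 3). The TRAV13D-1 clonotype, with TRBV20 and TRBJ1-4, also had 7 cells, or 2.16% (0.873 to 4.4%) of its library, with 6 to 20 UMIs. The TRAV13-1 clonotype, with TRBV19 and TRBJ1-3, had 5 cells and 3 to 14 UMIs. The TRAV8D-2 clonotype, with TRBV13-2 and TRBJ2-1, had 4 cells. Without uveitis the TRAV3D-3 clonotype, with TRBV13-2 and TRBJ2-4, had 4 cells with 8 to 42 UMIs, and the TRAV4D-3 clonotype, with TRBV29 and TRBJ2-3, had 3 with 3 to 17.

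Over all remaining TRAV contigs the CDR3α was 42 bases long at the median and 3 of its bases matched neither germline gene. Contigs without any unmatched base were 3 of 59, 1 of 64 and 40 of 173. These are contigs, so a clone can count more than once, and other TRAV chains were not counted in this way. The median of unmatched bases was 3, 3 and 2, and in the no uveitis dataset it was 2 for each copy. Without uveitis, 18 of 48 D-named, 10 of 49 N-named and 12 of 76 unmarked contigs had none. Of the 18, 7 were the same TRAV3D-3 and TRAJ21 chain and 3 the same TRAV4D-3 and TRAJ42 chain. With each chain counted once, 10 of 38 D-named, 10 of 47 N-named and 11 of 73 unmarked chains had none, or 26.3% (13.4 to 43.1%), 21.3% (10.7 to 35.7%) and 15.1% (7.77 to 25.4%), and these intervals overlap. In the same order, the counts by chain were 1 of 7, 0 of 16 and 2 of 22 in uveitis dataset 1. They were 1 of 10, 0 of 13 and 0 of 17 in uveitis dataset 2. No CDR3α of a remaining TRAV chain was found as such in more than 1 library, by bases or by translated sequence. Sharing between libraries was not counted for other TRAV chains, so this is not shown to be particular to these genes. In 4 cases the same CDR3α bases stood under a TRAV4 name and under TRAV4-4-DV10, its relative outside the rule, each time with different TRBs.
TRAV4-3 without uveitis, TRAV4-4-DV10 in uveitis dataset 1, TRAJ43: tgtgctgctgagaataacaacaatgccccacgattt
TRAV4N-4 and TRAV4-4-DV10 in uveitis dataset 1, TRAJ12: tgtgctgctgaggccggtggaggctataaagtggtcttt
TRAV4N-4 and TRAV4-4-DV10 in uveitis dataset 1, TRAJ33: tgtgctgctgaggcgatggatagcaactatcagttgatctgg
TRAV4D-3 and TRAV4-4-DV10 without uveitis, TRAJ42: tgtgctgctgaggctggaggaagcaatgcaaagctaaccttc
No bases are marked in these 4. The last is the CDR3α of the clonotype of 3 cells with TRBV29.

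A CDR3α of 1 V gene recurred with several TRBs in 6 cases, and in 4 of them all the TRBs used the same TRBV. TRAs with more than 1 TRB were 3 of 39, 1 of 35 and 2 of 129 among remaining TRAV chains, and 5 of 88, 7 of 98 and 1 of 276 among others, with overlapping intervals. The 4 cases were as follows, with the CDR3α of each shown in the same way.
TRAV16N and TRAJ15, uveitis dataset 1: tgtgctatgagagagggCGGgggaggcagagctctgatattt
TRAV3D-3 and TRAJ5, uveitis dataset 1: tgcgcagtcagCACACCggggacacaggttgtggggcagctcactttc
TRAV13-1 and TRAJ15, no uveitis: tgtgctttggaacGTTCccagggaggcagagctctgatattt
TRAV3D-3 and TRAJ21, no uveitis: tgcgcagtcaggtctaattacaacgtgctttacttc
The first was found with 3 TRBs of TRBV15, in 7, 1 and 1 cells, and the lone cell with TRBJ2-7 held 1 UMI of it. The TRAV3D-3 and TRAJ5 chain has 6 unmatched bases and was found in 3 cells with 3 TRBs of TRBV20, at 3 to 11 UMIs. The TRAV13-1 chain has 4 and was found in 3 cells with 3 TRBs of TRBV31, at 8 to 26 UMIs.
TRAV13-1, TRBJ1-1: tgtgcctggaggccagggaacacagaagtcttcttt
TRAV13-1, TRBJ2-1: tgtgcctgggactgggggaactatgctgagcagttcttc
TRAV13-1, TRBJ2-5: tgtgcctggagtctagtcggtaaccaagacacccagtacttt
Of these 3 CDR3β, 2 were also found in cells with another TRA. The TRAV3D-3 and TRAJ21 chain was in 7 cells with 3 TRBs of TRBV13-2 (4, 2 and 1 cells). Whether droplets with RNA of other cells took part in these pairings was not tested.

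Without uveitis, 3 CDR3β of remaining TRAV cells were each found in 2 versions that differ in bases but translate alike. In the first of them both chains did so. Cells with TRAV13D-2 and TRAJ34 paired these chains, here with no base marked.
First cell, CDR3β of TRBV13-2: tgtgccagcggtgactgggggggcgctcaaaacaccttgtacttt
Second cell, CDR3β of TRBV13-2: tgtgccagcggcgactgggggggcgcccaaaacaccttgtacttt
Their CDR3α, with unmatched bases in capitals, were also of 2 versions and 1 translation.
First cell, CDR3α: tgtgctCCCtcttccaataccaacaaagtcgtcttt
Second cell, CDR3α: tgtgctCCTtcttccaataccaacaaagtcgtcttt
The second was TRBV31 with TRAV10N and TRAJ23, in 2 cells whose CDR3α did not translate alike. The third was TRBV16 with a CDR3α of TRAJ38 that had 0 unmatched bases and was the same in all 3 cells, but was named TRAV16 in 2 cells and TRAV16N in the cell with the other CDR3β. In the 2 TRAV16 cells it was the TRA with fewer UMIs (4 and 5). These cells are 1 pool of 16 mice, and whether they came from 1 mouse is unknown.

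One pairing of segments was seen in several clonotypes, most of them of uveitis dataset 2, and was picked out after its values were seen. TRBV20 with TRBJ1-4 was in 5 clonotypes of uveitis dataset 2, and 4 of the 5 had TRAJ50, against 0 of the other 137 clonotypes. Without uveitis 2 of 4 had TRAJ50, against 4 of the other 407, and in uveitis dataset 1 it was 0 of 1, against 4 of the other 137. Of the 4 in uveitis dataset 2, 3 used TRAV13 genes: TRAV13D-1 (7 cells), and TRAV13-2 in clonotypes of 2 cells and 1 cell. The other one used TRAV4-4-DV10. The CDR3α of the 3 were of 39 bases, with 1 to 3 that matched neither gene, in capitals.
TRAV13D-1, 7 cells: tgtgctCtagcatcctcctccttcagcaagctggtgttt
TRAV13-2, 2 cells: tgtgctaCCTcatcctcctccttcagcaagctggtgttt
TRAV13-2, 1 cell: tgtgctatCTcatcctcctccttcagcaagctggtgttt
Their CDR3β were all of 42 bases, here with no base marked.
TRAV13D-1, 7 cells, TRBV20: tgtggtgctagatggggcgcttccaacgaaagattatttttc
TRAV13-2, 2 cells, TRBV20: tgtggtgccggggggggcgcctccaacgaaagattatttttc
TRAV13-2, 1 cell, TRBV20: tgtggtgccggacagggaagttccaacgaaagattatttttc
The CDR3α of both TRAV13-2 clonotypes differed at 1 base, and their CDR3β at 7.

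A second productive TRA was found in 9 of 58 cells with a remaining TRAV chain, or 15.5% (7.35 to 27.4%), in 21 of 61, or 34.4% (22.7 to 47.7%), and in 41 of 166, or 24.7% (18.3 to 32%). Cells without such a chain had one in 7.81%, 2.23% and 11.7%, but a cell with 2 TRAs has more than 1 chance to enter the first group, so these are not like for like. Counted by the TRA with the most UMIs alone, the shares were 9.26% (3.08 to 20.3%), 24.5% (13.8 to 38.3%) and 13.8% (8.63 to 20.5%) with a remaining TRAV chain and 10.6% (5.92 to 17.2%), 5.05% (2.79 to 8.33%) and 17.2% (13.3 to 21.6%) with another. Only in uveitis dataset 2 do the intervals not overlap. There, 13 of the 61 cells with a remaining TRAV chain held 1 of 5 pairs of TRAs that recurred in cells with the same TRB. By clonotypes with a second TRA in at least 1 cell, uveitis dataset 2 had 30.6% (16.3 to 48.1%) against 11.3% (5.99 to 18.9%), which overlap.

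In 5 of the 8 pairs that recurred over the 3 libraries, the chain with more UMIs changed from cell to cell, so that cells with the same TRB were counted under different V genes. TRAV3-3 and TRAV4-4-DV10 were together in 4 cells with TRBV5, and TRAV3-3 led in 1 of them. TRAV13D-2 and TRAV3D-3 with TRBV19, TRAV10 and TRAV7D-4 with TRBV13-1, TRAV5-4 and TRAV7-5 with TRBV3, and, without uveitis, TRAV10N and TRAV3D-3 with TRBV13-3 were each in 2 cells, with each chain leading in 1. TRAV8D-2 led TRAV12D-3 in all 3 of its cells (1 at equal UMIs). In uveitis dataset 1, TRAV13D-3 was below TRAV7D-3 in 3 of 3 cells, and the 3 contigs of TRAV13D-3 were all of this kind. In the no uveitis dataset TRAV16 was below TRAV12-2 in 2 of 2 cells. The lower chain was the remaining TRAV chain, and the upper one was not, in 4 of 9, 8 of 21 and 21 of 41 cells with a second TRA.

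The no uveitis dataset held 2 TRAV3N-3 contigs with CDR3α of 72 bases, each the TRA with fewer UMIs in its cell (14 and 10 UMIs). Capitals mark bases that match neither gene.
TRAV3N-3 and TRAJ15: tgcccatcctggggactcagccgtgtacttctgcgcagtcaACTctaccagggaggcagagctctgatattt
TRAV3N-3 and TRAJ30: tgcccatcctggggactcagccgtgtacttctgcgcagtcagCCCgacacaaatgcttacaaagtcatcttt
Both start 31 bases before the place where the CDR3α of TRAV3D-3 chains starts, which is not a multiple of 3, and from that place on 41 bases remain, which is not one either. The only other TRAV3N-3 contig, in uveitis dataset 1, had a CDR3α of usual length. At the other end, a TRAV3-3 chain of uveitis dataset 1 and a TRAV8N-2 chain without uveitis, both with TRAJ44, had CDR3α of 18 and 15 bases.

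The segments of invariant chains were nearly absent. TRAV11 with TRAJ18 was found in 1 of 483 cells without uveitis, as a second TRA with 12 UMIs beside TRAV14N-1 and TRAJ22 with 20, and in 0 of 186 and 0 of 330 cells with uveitis, which allows up to 1.61% and 0.909%. It was paired with TRBV5 and TRBJ2-5. Its CDR3α had 42 bases, 1 of which matched neither gene. Chains were called here by their segments alone, and this CDR3α was not compared with that of the NKT chain. TRAV1 with TRAJ33 was in 0 cells of each library. The lone TRAV1 chain used TRAJ15, and the other TRAV11 chain, also a second TRA, used TRAJ38.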

How the data were processed

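TCR libraries were made with a 10x Chromium Single Cell 5′ kit from P2+CD4+ T cells of pooled lymph nodes, and the authors ran Cell Ranger version 3 against GRCm38 (mm10). The deposited tables list 1 contig per line with its V, D, J and C genes, CDR3 and the count of UMIs and of reads behind it. The mRNA samples were not used here. Groups were taken from the labels.

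Productive TRA contigs were chosen by V gene name, and chains in a cell were ranked by UMI count, then reads. Cell Ranger's clonotypes were tried as an alternative. Gene positions and transcripts were from GENCODE M21 (GRCm38), in which 35 of 35 V names and 42 of 42 J names matched. CDR3 bases were matched to the V gene from the left and to the J gene from the right. The contig sequences were not used here, so V names stand as deposited. Named were V genes with at least 4 clonotypes or in a clonotype of at least 3 cells, such clonotypes, CDR3α under more than 1 name or in more than 1 library, and the 3 leading TRAJ and TRBV partners per library; other items were chosen after their values were seen. The members and lists were chosen with earlier results of these data known. With 2 pools against 1, no test between conditions was run. UMI totals were 5302, 7439 and 21408. Counting of shares was tested on simulated data. Python 3.11.15, pandas 2.3.3, numpy 2.4.6, scipy 1.17.1, Biopython 1.88 and matplotlib 3.10.9 were used. The sequence of 1 chain is not reported here.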

Additional observations from a re-analysis of the deposited data

How the results depend on the processing

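Over 9 alternatives 144 values were recomputed, and 135 stayed within the interval or the SD of the value given. Of the 9 outside, 6 were the N-named share of clonotypes, whose uveitis mean of 33.7% has an SD of only 0.536: it was 34.8% with at least 2 UMIs per contig, 32.6% in cells with exactly 1 TRA and 1 TRB, 35% with Cell Ranger's clonotypes, 35% in the 7 families with both unmarked and D- or N-named genes, 33.1% by cells, and 35.8% when cells that share a TRB and any TRA were joined, an alternative chosen after seeing the data. The share of cells with a remaining TRAV chain fell from 18.5% to 14.1% in uveitis dataset 2 with exactly 1 TRA and 1 TRB, and from 34.4% to 30% without uveitis when the top TRA alone was counted. The share with a second TRA without uveitis was 13.8% in place of 24.7% when the top TRA had to be a remaining TRAV chain, also chosen after seeing the data. With either uveitis library left out, the uveitis value ranged from 18.5% to 31.2% for cells, 25.4% to 31.9% for clonotypes, 18.2% to 30.6% for D-named, 33.3% to 34.1% for N-named and 36.1% to 47.7% for unmarked genes, 17.6% to 42.3% for expanded cells and 15.5% to 34.4% for a second TRA. No paired analysis was possible because no test between groups was made and the groups hold separate pools of mice.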
